A study of Mus musculus with 4 samples.

Results

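CTCF binding was described around 3 genes of the Wnt pathway in bone, Lrp5, Sost and Dkk1, in MC3T3-E1 cells during osteogenic differentiation. The members were the regions of CTCF peaks that overlapped 3 windows of the mouse genome (build mm9): chr19:3400000-3850000 for Lrp5, chr11:101650000-102000000 for Sost and chr19:30300000-30950000 for Dkk1. These windows held 98 of the 70742 regions of all chromosomes, 47 in the Lrp5 window, 38 in the Sost window and 13 in the Dkk1 window. The windows were set by position, but the Lrp5 window was also chosen by a measured value, a region starting at 3685540 that had peaks at day 0 and day 28 and none at day 9. That pattern is therefore given as a description. The members share neighbourhoods and are not independent of each other.

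MC3T3-E1 subclone 4 is a preosteoblast line from mouse calvaria (strain C57BL/6, passages 28 to 31), which makes and mineralizes a collagen matrix in culture. All stages come from this 1 line. Chromatin was taken from proliferating cells at day 0, from matrix-depositing cells at day 9 and from mineralizing cells at day 28, and was precipitated with a CTCF antibody. Differentiation was driven by 10 mM beta-glycerophosphate with ascorbic acid at 280 µM. Per the labels, 2 biological repeats were made per stage, but each stage is represented by 1 peak list, so no difference between stages has a replicate check. The lists held 67679 peaks at day 0, 42774 at day 9 and 45793 at day 28. Scores started at 100 and were saturated from 3100 upward, and both scores and the number of peaks grow with read depth, which is unknown. Input DNA from day 9 cells was not analysed here.

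LRP5 is a receptor on the cell surface that, together with Frizzled proteins, receives Wnt signals and stabilises beta-catenin. Loss of LRP5 lowers bone mass in humans and mice, and certain gain-of-function alleles raise it. SOST encodes sclerostin, which osteocytes secrete, and DKK1 is a second secreted protein. Both bind LRP5 and its relative LRP6 and block the signal. Sost is also known for a distant enhancer on its downstream side, which is deleted in van Buchem disease, a human disorder of high bone mass. CTCF is a zinc-finger protein known for its part in insulators and, together with the cohesin ring, in chromatin loops.

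No gene annotation of mm9 was used here, so no peak was assigned to a promoter, exon or intron. The gene positions were approximate: 3.58 to 3.69 Mb for Lrp5, near 101.82 Mb for Sost and near 30.62 Mb for Dkk1. In the gene order of RefSeq (GRCm38.p6), the protein-coding neighbours of Lrp5 are Ppp6r3 on the lower side and 1810055G02Rik and Kmt5b on the upper side. Sost lies between Meox1 on the lower side and Dusp3 on the upper side, and Dkk1 between Mbl2 and Prkg1. All 3 genes are read from the minus strand, so that their starts lie at the higher coordinate.

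The promoters of the antagonist genes Sost and Dkk1 were available from RefSeq (GRCm38.p6), and the 250 bases before each annotated start are shown as the start of each gene, beside which the nearest strong CTCF sites are described further on. Since the build differs from that of the peaks, no peak was laid on them. They are chr11:101967016-101967265 (minus strand) for Sost and chr19:30549497-30549746 (minus strand) for Dkk1. Capitals mark CCCTC on either strand (read as GAGGG on the other), the pentamer from which CTCF takes its name, and TATAAA on the strand of the gene.
Sost: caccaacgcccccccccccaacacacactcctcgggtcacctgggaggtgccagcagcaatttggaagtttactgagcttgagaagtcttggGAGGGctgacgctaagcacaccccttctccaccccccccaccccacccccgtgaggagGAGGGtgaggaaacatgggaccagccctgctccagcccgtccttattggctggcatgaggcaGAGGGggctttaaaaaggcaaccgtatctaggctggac
Dkk1: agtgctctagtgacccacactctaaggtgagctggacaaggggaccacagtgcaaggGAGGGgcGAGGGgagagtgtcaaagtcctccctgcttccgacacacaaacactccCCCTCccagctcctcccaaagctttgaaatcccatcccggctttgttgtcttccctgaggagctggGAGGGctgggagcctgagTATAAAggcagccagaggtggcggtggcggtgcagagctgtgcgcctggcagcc

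The pentamer occurred 3 times in the Sost promoter and 4 times in the Dkk1 promoter, with no overlap between matches. It is frequent, since 60.6% of 32841 RefSeq promoters of this length hold it. TATAAA began 54 bases before the start of Dkk1 and was not in the Sost window of 250 bases, and 7.59% of promoters hold it. The 12-letter CTCF consensus, searched on both strands, had no match in either promoter and one or more in 0.509% of all promoters. These matches describe the letters and say nothing about binding.

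The first question was how many CTCF regions surround each gene and how many of them last through differentiation. The Lrp5 and Sost windows were dense in CTCF regions at 104 and 109 regions per Mb, whereas the Dkk1 window held 20 per Mb. The rest of chromosome 19 held 41.6 per Mb, the rest of chromosome 11 held 45.0, and all chromosomes together 27.5. The median gap between neighbouring regions was 3.98 kb around Lrp5, 4.83 kb around Sost and 35.4 kb around Dkk1, against 12.4 kb over all chromosomes. The Lrp5 window had 45 peaks at day 0, 22 at day 9 and 30 at day 28. For Sost the counts at these stages were 36, 24 and 23, and for Dkk1 13, 9 and 7. The whole lists also differed in length, with 67679, 42774 and 45793 peaks. With each list limited to its 42774 highest peaks, the counts were 27, 22 and 28 for Lrp5, 21, 24 and 21 for Sost and 7, 9 and 7 for Dkk1.

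About the same share of regions was found at all 3 stages around Sost and Dkk1 as elsewhere. The share around Lrp5 was lower, and the difference was not tested. Around Sost it was 20 of 38 (52.6%, 95% exact interval 35.8 to 69.0), around Dkk1 7 of 13 (53.8%, 25.1 to 80.8) and around Lrp5 18 of 47 (38.3%, 24.5 to 53.6), against 52.3% of all regions. Regions found at day 0 alone numbered 16 around Lrp5, 11 around Sost and 5 around Dkk1, which is 32 of the 98 members (32.7%), against 31.1% of all regions. These day 0 regions were weak: their median score was 154 around Lrp5, 158 around Sost and 131 around Dkk1, against 175 for all regions of this kind. With each list limited to its 42774 highest peaks, a limit that removed day 0 peaks scoring under 314.5, 5 of 34 regions around Lrp5, 1 of 26 around Sost and 1 of 9 around Dkk1 were found at day 0 alone, against 9.19% of all regions.

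Regions missing at exactly 1 stage were few, and differences between the windows were not tested. Around Lrp5, 8 of 47 regions (17.0%) lacked a peak at day 9 alone, having one at day 0 and another at day 28. One of the 8 is the region by which the window was chosen, so this share is a description. Without it the share was 7 of 46 (15.2%), and it was 10.0% in the rest of chromosome 19 and 7.53% over all regions. Around Sost, 1 of 38 regions was of this kind (2.63%, 0.0666 to 13.8) and 4 lacked a peak at day 28 alone (10.5%, 2.94 to 24.8), a pattern held by 3.60% of all regions. Around Lrp5 that second pattern was seen in 2 regions (4.26%, 0.520 to 14.5). The Dkk1 window had no region missing at exactly 1 stage, and for each such pattern 0 of 13 regions has an exact upper bound of 24.7%. With the lists cut to the same length, 3 of 34 Lrp5 regions and 0 of 26 Sost regions lacked day 9 alone, against 4.07% of all regions. At that length 1 Lrp5 region and 2 Sost regions lacked day 28 alone, against 3.75% of all regions. In the full lists 0 of the 98 members lacked day 0 alone (exact upper bound 3.69%), against 1.50% of all regions. With shortened lists 1 of 34 Lrp5, 2 of 26 Sost and 1 of 9 Dkk1 regions did, against 6.69% of all regions.

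**Figure D1:**
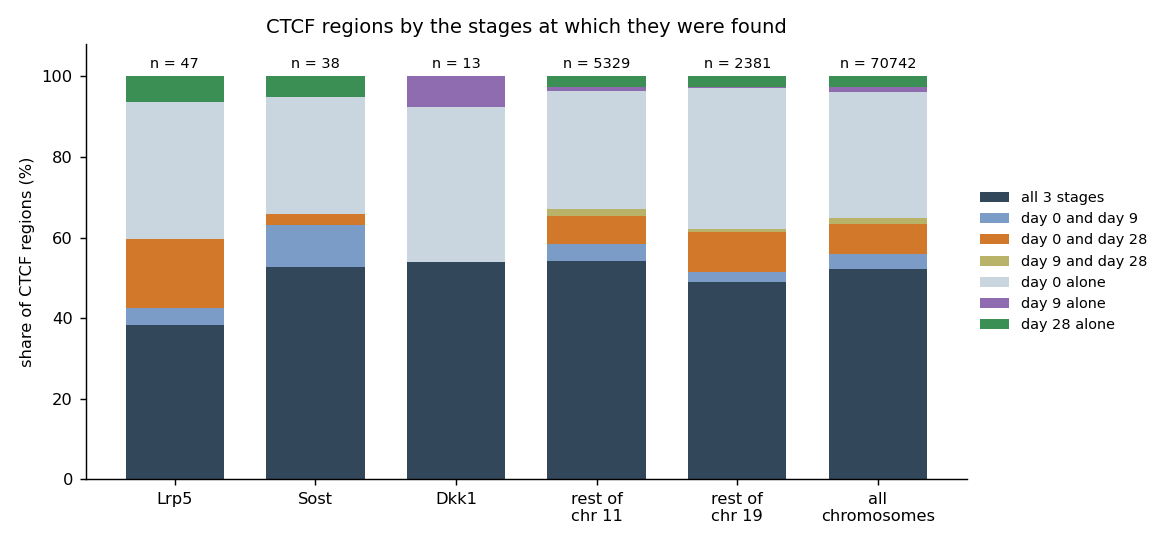
Share of CTCF regions (percent, y axis) by the stages at which they had a peak, for the Lrp5, Sost and Dkk1 windows, the rest of chromosomes 11 and 19 and all chromosomes (x axis, number of regions above each bar). The orange part, regions at day 0 and day 28 but not day 9, is 17.0% for Lrp5 and 7.53% for all chromosomes.

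Inside the approximate span of Lrp5, 17 regions were found, of which 8 had peaks at all stages, 6 at day 0 alone, 2 at day 0 and day 28 and 1 at day 28 alone. Over all regions these classes held 52.3%, 31.1%, 7.53% and 2.74%, and a difference was not tested. The strongest sites lay in the lower part of the span, the side where the gene ends. The region at chr19:3586071-3587355 and the region at chr19:3622793-3624753 had saturated scores at all 3 stages, as did 6.63% of all regions. The second of these was wide, with peaks of 1952 bp at day 0 and 1921 bp at day 28, against list medians of 552 and 702 bp. At chr19:3581069-3582004, a region was saturated at day 0 and day 28 and scored 2234 at day 9. At chr19:3587621-3588391, another was saturated at day 0 and scored 1032 at day 9 and 1243 at day 28. The regions at 3581069, 3586071 and 3587621 thus formed a group of strong sites within a few kb of each other.

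The other lasting sites of the span had no saturated score at any stage. The region at 3619324-3619904 scored 1182 at day 0, 121 at day 9 and 322 at day 28. Likewise, the region at 3651168-3651739 scored 1498, 224 and 323 at these stages. Both stood far lower in rank at day 9 than at day 0, as given with the ranks. The region at 3654737-3655509 scored 927, 305 and 619, and the region at 3673042-3673654 scored 1136, 301 and 537. The first of these kept nearly the same percentile at day 9 (46.8 at day 0, 46.0 at day 9), and the second stood at 55.6 at day 0 and 45.5 at day 9. Scores of different lists are not on 1 scale, so only the ranks are compared.

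The region at chr19:3685540-3687633 lies at the upper end of the Lrp5 span, the side of the gene's start. It scored 1752 at day 0 and 1105 at day 28, with no listed day 9 peak. Among the 5324 regions found at day 0 and day 28 only, it was in place 2 by the lower of its list percentiles, and its scores were in place 51 at day 0 and place 3 at day 28. Its median fellow scored 318 at day 0 and 146 at day 28. It was also broad, with peaks of 1888 bp at day 0 and 2094 bp at day 28, place 21 and place 3 among these regions, whose median widths were 483 and 548 bp.

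The nearest listed day 9 peaks were 11931 bp below and 11892 bp above this region. Peak numbers in each list run in order of position on all 21 chromosomes, and these 2 neighbours were numbered 29385 and 29389. So 3 day 9 peak numbers between them are not in the list, within 25.9 kb that held 5 regions of the other stages. The list shows neither where in the interval those 3 peaks lay nor what they scored. Unlisted numbers were common: all 9 member regions found at day 0 and day 28 only had one or more between their day 9 neighbours, against 86.4% of all such regions. These 9 are not separate observations. The regions at 3680634 and 3685540 lie in the same interval, and so do those at 3741098 and 3743913. Of the day 9 intervals of 20 to 35 kb, limits set after seeing this interval, 37.9% held an unlisted number and 2.49% held 3 or more. Whether a weak day 9 peak lay at the region was not tested, and a listed absence here is not a measured loss of CTCF.

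The 7 other Lrp5 regions that lacked a peak at day 9 alone were weaker at day 28. The region at 3707391-3709184, above the Lrp5 span, scored 1205 at day 0 and 342 at day 28 and was broad too, at 1208 and 1794 bp. The region at 3680634-3681938 scored 716 and 112, and the region at 3447211-3447812 scored 880 and 119. These 3 stood well below the region at 3685540 at day 28. The region at 3404053-3404640 scored 244 and 111, and the region at 3518975-3520124 scored 105 and 207. The region at 3741098-3741576 scored 133 and 120.1, and the region at 3743913-3744661 scored 189 and 326. Each of these 4 scored below the median of its list at both stages.

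Broad day 0 peaks were seen among Lrp5 regions with and without a day 9 peak. A width of 1000 bp or more at day 0, a limit set after seeing the values, was reached by 4 of the 8 regions found at day 0 and day 28, the one that chose the window among them, against 18.4% in the rest of chromosome 19 and 9.32% of all such regions. It was reached by 3 of the 16 regions found at day 0 alone, against 7.96% in the rest of chromosome 19 and 4.40% of all such regions. Of the Lrp5 regions found at all stages 5 of 18 reached it, against 35.0% in the rest of chromosome 19 and 18.5% of all such regions. The 3 at day 0 alone were at 3575173-3576472 (score 437), 3638297-3639518 (517) and 3668800-3669999 (386), all inside or within 20 kb of the Lrp5 span. Of the Sost regions found at day 0 alone none of 11 was that wide, against 6.22% in the rest of chromosome 11. What makes a peak broad was not tested.

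The remaining regions in or near the Lrp5 span that were found at a single stage were weak. At day 0 alone these were at 3595569 (score 162), 3653239 (105), 3675269 (128), 3684364 (106) and 3697466 (129). At day 28 alone there was 1, at 3667951-3668431, with a score of 181. Farther below the span, the region at chr19:3429086-3429809 was found at day 28 alone with a score of 640.03, place 21 of the 1939 regions of that kind, whose median score was 141. There, no day 9 peak number was unlisted between the neighbours, 17.1 kb apart, and 1 day 0 number was. So no numbered day 9 peak lies in that interval.

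Outside the span, the region highest by its mean percentile over the lists was at chr19:3450801-3452016, with saturated scores at day 0 and day 28 and a score of 2347 at day 9. On the upper side, the region at 3699367-3700547 was saturated at day 0 and scored 1767 at day 9 and 2716 at day 28. Both were thus strong at every stage. The 2 regions missing at day 28 alone were at 3419135-3419686, with scores of 442 at day 0 and 190 at day 9, and at 3728916-3729350, with 153 and 105. At the window limits, the last region inside scored 299.5, 109 and 366 at day 0, 9 and 28, while the regions just outside at 3388549 and 3850825 were saturated at day 0, with 3100 and 417 at day 9.

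**Figure D2:**
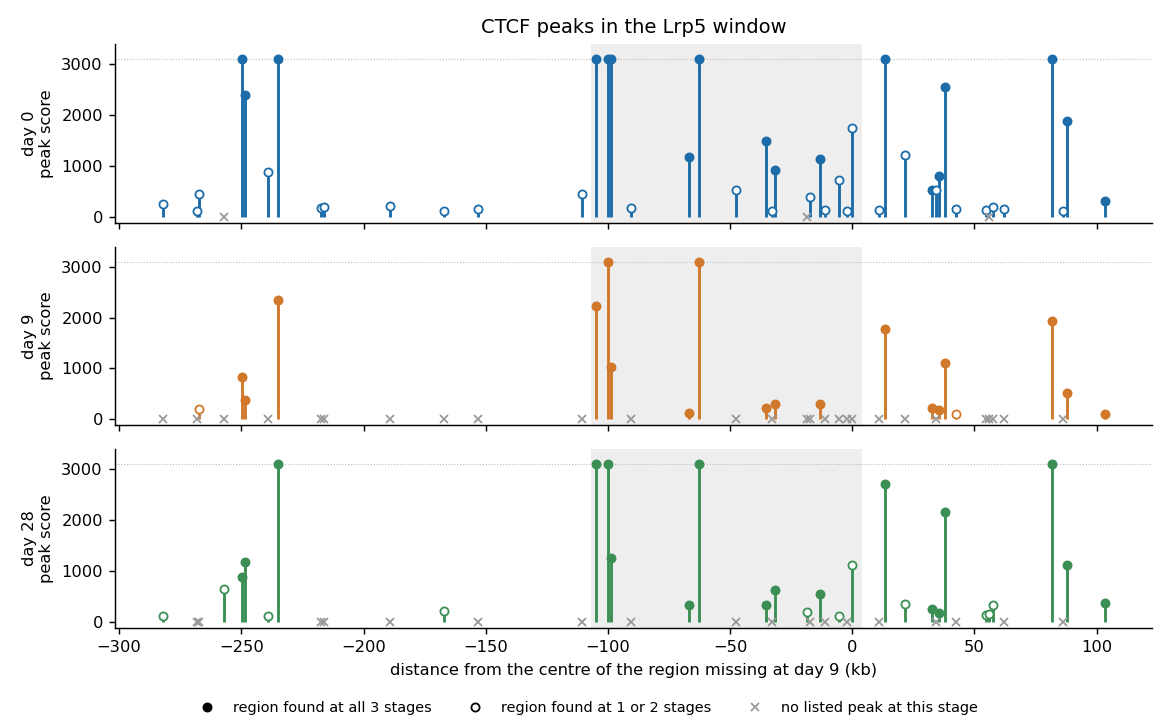
Scores of CTCF peaks (y axis, saturated at 3100, dotted line) in the Lrp5 window at day 0, day 9 and day 28 against distance in kb from the centre of the region missing at day 9 (x axis), with the approximate Lrp5 span shaded. Filled points are regions found at all 3 stages, open points regions found at 1 or 2 stages and crosses regions with no listed peak, and at distance 0 the score is 1752 at day 0 and 1105 at day 28 with a cross at day 9.

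Sost had saturated sites on both sides. Saturation in all 3 lists was seen in 457 of 5329 regions in the rest of chromosome 11 and in 6.63% of all regions. Around Lrp5 it was seen in 2 of 47 regions and around Sost in 5 of 38, and differences were not tested. The 5 Sost regions were at chr11:101780274-101781594, 101829637-101830905, 101846941-101847963, 101901169-101902329 and 101999507-102000598. The nearest one, at 101829637, began 9.64 kb above the approximate position of Sost, on the side where the gene starts and toward Dusp3. Its peaks were 1269 bp wide at day 0 and 996 bp at day 28. The last one crosses the upper limit of the window.

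The lower side of Sost, toward Meox1 and the side of the known distant enhancer, was emptier close to the gene. Within 20 kb on that side lay 1 region, at 101807737-101808291, with scores of 203 at day 0 and 139 at day 28 and no listed day 9 peak. The next, at 101789576-101790197, ended 29.8 kb below and scored 829 at day 0, 498 at day 9 and 662 at day 28. On that side the nearest saturated one, at 101780274, ended 38.4 kb below. On the upper side 4 regions lay within 20 kb. Besides the saturated one, 101832433-101833147 scored 1183 at day 0, 275 at day 9 and 487 at day 28, and 101835948-101836734 scored 1271, 306 and 392. The fourth, at 101838254, was a weak day 0 region with a score of 123.

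The 4 Sost regions missing at day 28 alone all lay on the upper side and were weak at day 9. The region at 101865546-101866016 scored 599 at day 0 and 169 at day 9. The region at 101947607-101948122 scored 355 at day 0 and 100.07 at day 9, close to the lowest score of that list. The regions at 101845875-101846567 and 101888962-101889394 scored 211 and 145 at day 0 and 120 and 127 at day 9. For these 4 regions, 2 to 3 day 28 peak numbers were unlisted between the listed neighbours, and whether one of these lay at the region was not tested. The regions at 101865546 and 101888962 lie in the same interval and share its 3 unlisted numbers. In the whole day 28 list 16001 of 61794 numbers were unlisted, and no share over all regions of this kind was taken. At the lower window limit the first region inside scored 201, 149 and 119, and the first outside, at 101645811, was found at day 0 alone with a score of 301. The first region outside above, at 102001656, was saturated at day 0 and day 28 and scored 2383 at day 9.

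**Figure D3:**
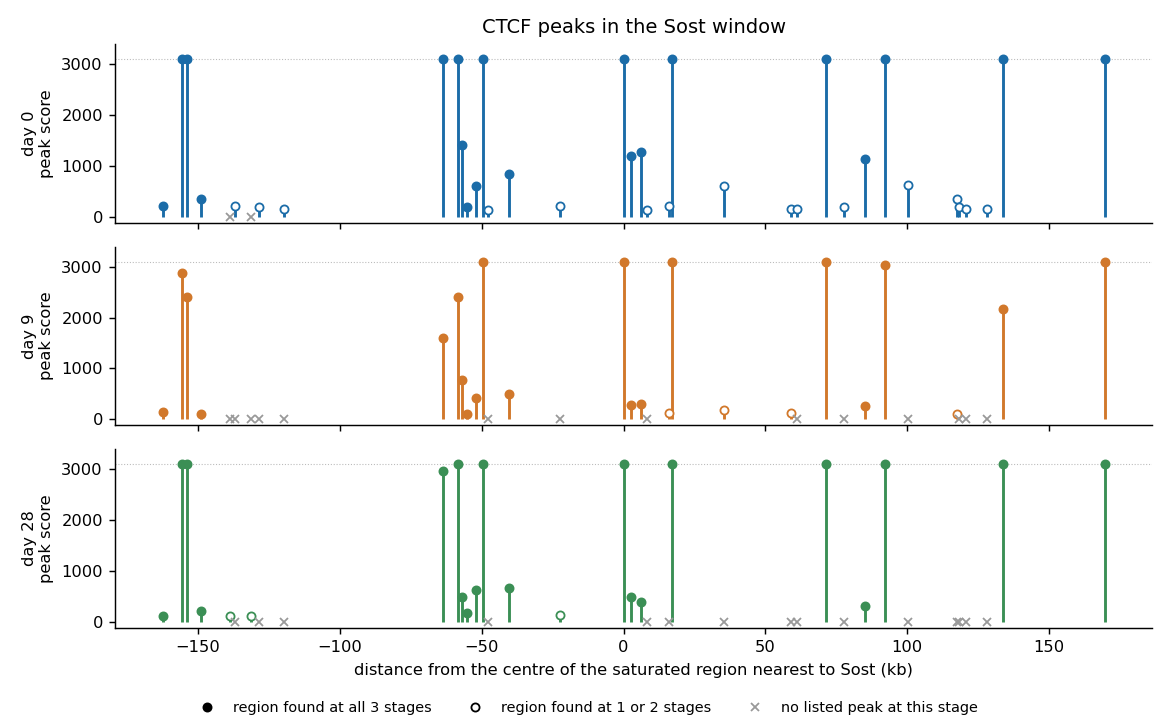
Scores of CTCF peaks (y axis, saturated at 3100, dotted line) in the Sost window at day 0, day 9 and day 28 against distance in kb from the centre of the saturated region nearest to Sost (x axis), with symbols for regions at all stages (filled), at 1 or 2 stages (open) and without a listed peak (cross). Of the 38 regions, 5 reach 3100 in every panel, 1 of them at distance 0.

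Dkk1 lay in sparse territory with 3 strong regions. The nearest, at chr19:30628163-30629726, began 8.16 kb above the approximate position of Dkk1, on the side where the gene starts. It consisted of a pair of peaks: at day 0 a weak one (score 206) and a saturated one (3182) 182 bp apart, and at day 9 peaks scoring 446 and 1527 that were 326 bp apart. At day 28 the list had a single peak of 1564 bp with a score of 2955. The upper peak of the pair thus had the higher score at both stages. The nearest region below was 125.8 kb away, the longest gap of the window, and the nearest above, a day 0 region with a score of 131, was 11.3 kb away.

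The other strong regions of the Dkk1 window were at 30323245-30323764, with a saturated score at day 0 and scores of 1425 at day 9 and 1639 at day 28, and at 30738617-30739241, saturated at day 0 with 1534 and 1727 later. None of the window's 9 day 9 peaks was saturated, against 4833 of the 42774 peaks of that list. Nor was any of its 7 day 28 peaks, against 8556 of 45793, and a difference was not tested. The region at 30402132-30402582 was the 1 member found at day 9 alone, a class that holds 1.25% of all regions, and its score of 116 was below the class median of 123. No Dkk1 region was found at day 28 alone, against 3 around Lrp5, 2 around Sost and 2.74% of all regions. The day 0 regions were at 30501975, 30640997, 30814546, 30902343 and 30925489, with scores of 100.96 to 394. The last of these, at the upper limit of the window, scored 152. At the limits, the first region outside below, at 30291607, was saturated at day 0 and day 28, and the first above, at 30976747, was a day 0 region with a score of 192.

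**Figure D4:**
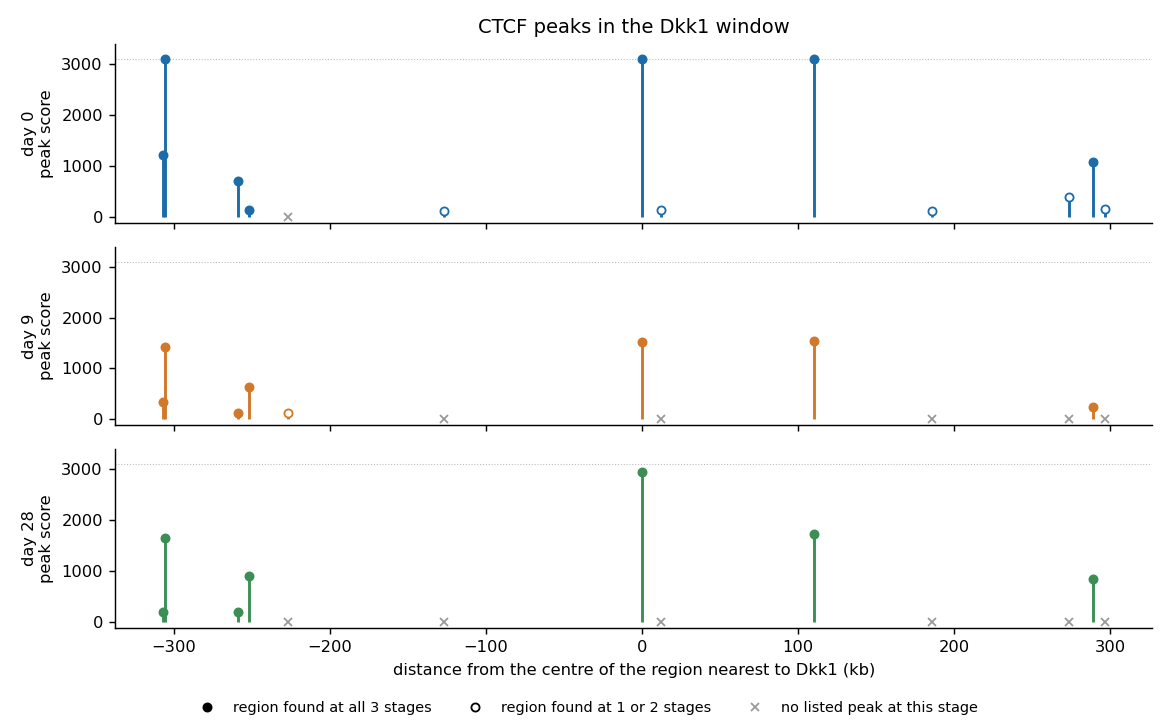
Scores of CTCF peaks (y axis, saturated at 3100, dotted line) in the Dkk1 window at day 0, day 9 and day 28 against distance in kb from the centre of the region nearest to Dkk1 (x axis), with symbols for regions at all stages (filled), at 1 or 2 stages (open) and without a listed peak (cross). At distance 0 the highest peak is saturated at day 0, 1527 at day 9 and 2955 at day 28.

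Next, the order of the lasting sites was compared, since ranks within a list do not depend on its score scale. Of the 45 member regions found at all stages, 22 had 1 unsaturated peak in each list and were ranked among 23673 such regions of all chromosomes. Another 20 were left out for a saturated score and 3 for several peaks in a list. Around Lrp5, 8 of 9 ranked regions stood lower at day 9 than at day 0, with a median difference of -11.3 percentile points (quartiles -33.8 and -7.88). The median was -6.91 over 16 regions with saturated ones kept, and -31.7 with percentiles taken over all peaks of a list. Such percentiles over all peaks come from lists of unequal length. With them the medians of Sost and Dkk1 were -21.5 and -28.0, and no value over all chromosomes was taken for any pair of stages. In the main ranking, the rest of chromosome 19 had a median of -9.69 with 68.3% of 621 regions lower. Of all regions 49.9% were lower. The Lrp5 regions thus shared the direction of their chromosome, and a difference from it was not tested.

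The widest falls around Lrp5 were at 3619324, which stood at percentile 57.4 at day 0, 6.96 at day 9 and 34.4 at day 28, and at 3651168, at 67.7, 33.1 and 34.5. The exception was the region at 3718758-3719915, at 23.9, 33.9 and 26.0. From day 9 to day 28, 7 of 9 Lrp5 regions stood higher, with a median of 7.97 points, against 6.79 in the rest of chromosome 19, while 50.8% of all regions stood lower. With saturated regions kept the Lrp5 median was 2.65. Over the whole course, 6 of 9 stood lower at day 28 than at day 0 (median -4.12), against 50.7% of all regions. That median was -1.57 with saturated regions kept and -18.4 with percentiles over all peaks.

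Around Sost the ranks moved both ways. Of 9 ranked regions 5 stood lower at day 9 than at day 0, with a median of -3.24 points. In the rest of chromosome 11, 52.5% stood lower and the median was -0.919. For Sost the median took other values in other settings. With saturated regions kept, the median over 20 regions was 2.45, and with percentiles over all peaks it was -21.5. Below the position of Sost 2 of 6 stood lower and above it 3 of 3. The highest gains were at 101777959, at percentile 29.6 at day 0, 57.4 at day 9 and 56.1 at day 28, and at 101789576, at 42.0, 64.5 and 58.2. Both lay below Sost. Above it, the region at 101915080 stood at 55.3, 37.9 and 32.0. The split by side was made after seeing the values.

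Around Dkk1, 3 of 4 ranked regions stood lower at day 9 than at day 0 and 1 stood far higher. In the rest of chromosome 19, 68.3% stood lower with a median of -9.69 points, and of all regions 49.9% stood lower. A difference from these was not tested. The region at chr19:30376660-30377281 scored 139 at day 0, 636 at day 9 and 895 at day 28, and stood at percentile 1.89, 73.3 and 67.7. A gain this large from day 0 to day 9 was seen in 93 of 23673 ranked regions (0.393%), and in 3 of the 634 on chromosome 19. The region was picked for having the largest gain of the window, so this share is a description. From its low day 0 percentile the region had much room to rise and little to fall. Its neighbour 6.55 kb below, at 30369687-30370110, went the other way, at percentile 34.8, 8.28 and 15.5. The region at 30917645 stood at 53.4, 37.5 and 65.5, and the region at 30321457 at 58.2, 49.3 and 15.3. The 4 regions had a median of -12.4 points, a value that rests on few regions and turned to 22.5 when the window was narrowed by 50 kb and held 2 of them. It was -28.0 with percentiles over all peaks.

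**Figure D5:**
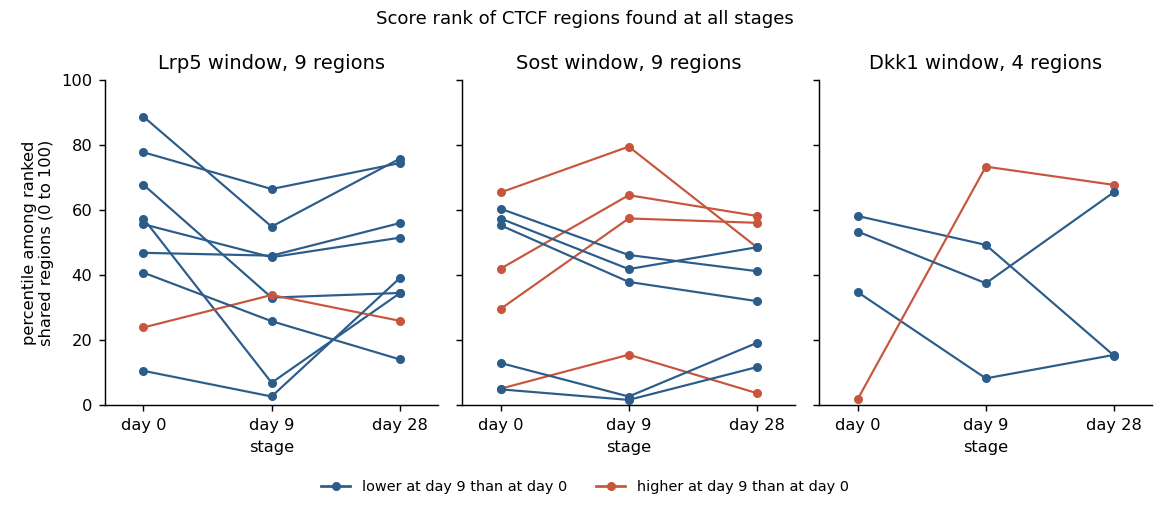
Percentile (0 to 100, y axis) of the ranked CTCF regions of the Lrp5, Sost and Dkk1 windows at day 0, day 9 and day 28 (x axis), 1 line per region, blue where it stood lower at day 9 than at day 0 and red where it stood higher. Of the Lrp5 lines 8 of 9 are blue, and 1 Dkk1 line stands at 1.89 at day 0, 73.3 at day 9 and 67.7 at day 28.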

How the data were processed

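The data were 3 lists of CTCF peaks on the mouse build mm9, 1 for each of day 0, day 9 and day 28. The submitters' processing notes name MACS 1.4.1, Bowtie 0.12.8 and CASAVA 1.6. How the 2 repeats of a stage and the 2 input libraries entered a list is not given in the sources used here. Column 5 holds the score that the authors deposited for each peak, read here as MACS's -10 log10 p. The other deposited values are peak starts and ends, given here counted from 1. Read totals are unknown, so scores were used for ranks within a list, and scores of 3100 or more were treated as tied.

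With Python 3.11.15, NumPy 2.4.6 and SciPy 1.17.1, peaks sharing at least 1 bp were joined into regions. Regions overlapping the 3 windows were counted by stage, with exact (Clopper-Pearson) 95% intervals that cover counting error only. Percentiles (0 to 100) were taken in each list over the regions with 1 unsaturated peak in every list. The code was tested on simulated lists. With 1 list per stage there is no replicate error and no p-value. The windows, and the summaries made in them, were chosen with earlier results of these data known. All regions were counted. Those given singly were the highest 3 of each window by mean list percentile (ties kept), those within 20 kb of the gene's position, and those missing at exactly 1 stage. Other regions given with their values (found at a single stage, with several peaks, at a window limit, or among those ranked) were chosen after their values were seen. Alternatives were an overlap of 50% of the shorter peak, a minimum score of 200, lists cut to the length of the shortest, windows moved by 50 kb at both ends, saturated regions kept, and percentiles over all peaks. Values for Wnt pathway genes outside the windows need gene positions on mm9 and are not given.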

Additional observations from a re-analysis of the deposited data

How the results depend on the processing

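Of 130 recomputed values of 28 results, 105 stayed within set limits (counts within 1.5 times, shares within their interval, rank medians within their quartiles), 18 moved further and 7 turned their sign. The quartiles span few regions and are wide, so large changes of a rank median could fall within them. With percentiles over all peaks, day 9 minus day 0 for Lrp5 was -31.7, beside -11.3 in the main ranking. Day 28 minus day 0 was -18.4 for Lrp5 (main -4.12) and -21.6 for Dkk1 (main -3.59). The narrowed Sost window gave -8.82 for day 28 minus day 0 (main -1.37). No replicate could be left out, because each stage has 1 list, and no paired analysis was possible because no stage has replicate lists. Equal list size gave 27, 21 and 7 day 0 peaks around Lrp5, Sost and Dkk1, and a Sost share at all stages of 69.2%, beside 65.1% of all regions. A score of at least 200 left 25 Sost regions, 8 Dkk1 regions with 4 at all stages, and 8 day 0 peaks around Dkk1. Windows narrowed by 50 kb held 15 day 28 peaks around Sost and, around Dkk1, 8 regions, 4 of them at all stages, 8 day 0 peaks and 4 day 28 peaks. For the region missing at day 9, a search within 20 kb found 2 day 9 peaks, and searches within 1 kb and 5 kb found 0. Rank medians depended on the choice of regions. With saturated regions kept, day 9 minus day 0 was -6.91 points for Lrp5 and 2.45 for Sost, day 28 minus day 0 was 4.88 for Sost, and day 28 minus day 9 was -6.04 for Dkk1. With percentiles over all peaks, day 9 minus day 0 was -21.5 for Sost and -28.0 for Dkk1, day 28 minus day 0 was -17.8 for Sost, and day 28 minus day 9 was 1.35 for Sost. No value over all chromosomes was taken with percentiles over all peaks. A window widened by 50 kb gave 2.40 for Sost (day 28 minus day 0), and narrowed windows gave 22.5 and 23.3 for Dkk1 (day 9 and day 28 minus day 0). The narrowed and widened windows hold other regions by construction; the cause of the other changes was not tested. Depth is unknown, so a missing peak means that none was listed.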

Other observations

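CTCF regions around Lrp5 and Sost often came in close groups. Of the Lrp5 regions 28 of 47 (59.6%) and of the Sost regions 22 of 38 (57.9%) lay within 2 kb of another region, against 2 of 13 around Dkk1 and 27.4% of all regions. The Lrp5 and Sost windows were also dense, at 104 and 109 regions per Mb against 27.5 over all chromosomes. No share at matched density was taken, so the grouping is not separate from the density. The region at chr19:3723748-3725356 in the Lrp5 window held a pair of peaks in every list. The lower and upper peak scored 2273 and 2556 at day 0, 478 and 1108 at day 9, and 1088 and 2159 at day 28, so the upper one had the higher score each time. The region at chr19:3767091-3769225 had 1 saturated peak at day 0 and at day 28, but at day 9 a pair scoring 380 and 1923.

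Regions found at all stages were built from overlapping peaks, so the peak centres of a region lie near each other by construction. Among regions with 1 peak in each list, the median distance between the day 9 and day 0 peak centres was 54.5 bp around Lrp5 (16 regions), 67.5 bp around Sost (20) and 13.0 bp around Dkk1 (6), against 37.0 bp over all chromosomes. Day 28 peaks were wider than day 9 peaks in 16 of 16 Lrp5, 18 of 20 Sost and 6 of 6 Dkk1 regions, and in 92.8% of all regions.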
